A study of Mus musculus with 6 samples.

Results

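Interferon-stimulated genes and the genes of cytosolic nucleic acid sensing form a set of 36 genes, chosen by symbol, and all 36 were found among the 24421 genes of the count table. Of these, 31 had enough reads to be tested in the comparison of PluriSIn#2 with DMSO. RNA sequencing measured them in primary neural stem cells from the subventricular zone, the germinal lining of the lateral ventricles, of wild-type C57BL/6 mice at postnatal day 60. Cells grown with EGF and FGF2, both at 20 ng/ml, received either 20 µM PluriSIn#2, described in the labels as an inhibitor of topoisomerase IIA, or its solvent DMSO. Treatment lasted 3 days and the medium was changed after 24 h. There were 3 libraries in each group, with 16670962 to 17827158 counts in PluriSIn#2 and 18186070 to 19241869 in DMSO. Whether the libraries of a group were grown as separate cultures is not in the labels, so every p-value rests on the scatter among these libraries, part or all of which may be technical. The treatment fields of PluriSIn#2 replicates 2 and 3 carry other numbers after the compound's name than their titles do, and the titles were used.

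Cells sense misplaced nucleic acid through a few dedicated receptors. DNA in the cytosol is bound by cGAS (gene Mb21d1), whose cyclic dinucleotide product activates STING (gene Tmem173), while the helicases RIG-I (Ddx58) and MDA5 (Ifih1) recognise viral RNA. Both routes meet at the kinase TBK1 and the transcription factor IRF3, which switch on type I interferon, and secreted interferon then acts through its receptor on factors that include STAT2 and IRF9 to induce antiviral genes by way of a DNA motif called the interferon-stimulated response element (ISRE). Broken or mis-segregated chromosomes are a known source of DNA for cGAS, and stem cells are known to hold some interferon-stimulated genes at a constant level without interferon.

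The set did not move in one direction. In the treated cells the DNA sensor Mb21d1 fell 7.29-fold and its partner Tmem173 fell 2.22-fold, the antiviral genes Rsad2 and Isg15 fell 2.80-fold and 2.83-fold, and Ifit3, Ifitm1, Ifitm3 and Ifi27 rose. Of the 31 genes tested, 9 rose, 12 fell and 10 were not called, against a background in which 82.6% of all 14417 genes tested were called. In the same test 41.7% of all genes rose and 40.9% fell, against 29.0% and 38.7% of the 31. Their median log2 fold change was -0.09, beside 0.01 for all genes tested. At least 2-fold changes were found for 4 genes that rose (16.3% of all genes tested did so) and 4 that fell (11.7% of all genes). A call means an adjusted p under 0.05 in the quasi-likelihood test of edgeR, with p-values adjusted over all genes tested by the method of Benjamini and Hochberg. The 3 and 3 libraries did not overlap for 21 of the 31 genes, 10 higher in PluriSIn#2 and 11 lower, against 82.7% of all genes tested.

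Promoters of 28 of the 36 genes were matched in RefSeq (build GRCm38.p6), each running from 250 bases before the gene's start to 50 after it. The core of the ISRE, searched on both strands as GAAA, any 2 bases and GAAA, was present in 13 of these 28 windows (46.4%) and in 3.49% of 27025 promoters of the same length. Most of the set was chosen as interferon-stimulated genes, so this difference describes the choice of genes and is not a result of the treatment. The 4 promoters below belong to the genes that hold this core and changed at least 2-fold. Of these 4 genes, 2 rose and 2 fell. Mb21d1 and Ifitm1 also changed at least 2-fold but hold no core in their windows. Tmem173 and Ifi27 changed as much, but had no matched promoter and were not searched. Capitals mark the core, which reads TTTC, any 2 bases and TTTC where it lies on the other strand, and coordinates are those of GRCm38.
Ifit3 (rose; chr19:34583279-34583578, plus strand): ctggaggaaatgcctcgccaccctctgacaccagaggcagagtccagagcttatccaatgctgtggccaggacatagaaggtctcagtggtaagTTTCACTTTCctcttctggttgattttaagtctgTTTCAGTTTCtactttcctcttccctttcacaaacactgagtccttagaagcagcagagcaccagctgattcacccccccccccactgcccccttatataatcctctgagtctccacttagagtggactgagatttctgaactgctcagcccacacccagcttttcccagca
Ifitm3 (rose; chr7:141010695-141010994, minus strand): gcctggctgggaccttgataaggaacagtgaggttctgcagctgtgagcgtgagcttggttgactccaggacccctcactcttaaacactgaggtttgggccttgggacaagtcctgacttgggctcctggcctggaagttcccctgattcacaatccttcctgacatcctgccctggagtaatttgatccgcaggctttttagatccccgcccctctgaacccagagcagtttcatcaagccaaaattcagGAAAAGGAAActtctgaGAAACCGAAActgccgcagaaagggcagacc
Isg15 (fell; chr4:156200769-156201068, minus strand): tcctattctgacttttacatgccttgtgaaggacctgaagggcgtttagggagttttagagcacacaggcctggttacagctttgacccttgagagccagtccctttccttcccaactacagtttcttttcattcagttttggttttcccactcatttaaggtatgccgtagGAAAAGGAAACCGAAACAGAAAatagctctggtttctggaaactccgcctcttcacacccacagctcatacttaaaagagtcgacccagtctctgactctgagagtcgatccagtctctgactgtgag
Rsad2 (fell; chr12:26456403-26456702, minus strand): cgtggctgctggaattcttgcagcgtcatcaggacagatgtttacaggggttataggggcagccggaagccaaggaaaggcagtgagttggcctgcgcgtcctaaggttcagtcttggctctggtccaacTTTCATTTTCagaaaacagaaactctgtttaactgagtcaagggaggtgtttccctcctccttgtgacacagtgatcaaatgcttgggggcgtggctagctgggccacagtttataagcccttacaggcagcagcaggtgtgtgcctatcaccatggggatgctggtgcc

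Isg15 holds 3 overlapping copies of the core, which begin 78, 72 and 66 bases before its start, while Ifit3 holds 2, which begin 156 and 122 bases before it. In Rsad2 the single core begins 120 bases before the start, and in Ifitm3 the 2 cores begin at bases 3 and 20 after it. Across the set the core was found in 5 of the 8 genes with a matched promoter that rose and in 5 of the 10 that fell, so the 2 directions shared it. A second motif, the gamma-activated site searched as TTC, any 3 bases and GAA (its own reverse complement), was present in 6 of the 28 windows (21.4%) and in 8.47% of all promoters, with 2 among the 8 that rose and 2 among the 10 that fell. A match of letters is a description and not a binding site.

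Of the 7 sensor and signalling genes 2 rose (28.6%), 2 fell (28.6%) and 3 were not called, against 41.7% and 40.9% of all genes tested that rose and fell. Mb21d1, on chromosome 9 from 78430526 to 78443237, stood at 0.620, 1.15 and 0.878 CPM (read counts brought to one library size by the TMM method) in PluriSIn#2, against 5.94, 5.96 and 7.57 CPM in DMSO. Every treated library lay far below every DMSO library. The means were 0.883 ± 0.266 and 6.49 ± 0.937 CPM (SD, n = 3 each), with a log2 fold change of -2.87 (SE 0.214, edgeR adjusted p = 5.74e-22), and this was the largest fall among the 31 genes tested. Tmem173, the membrane adaptor that answers to the cGAS product, had 7.50, 8.004 and 7.55 CPM in PluriSIn#2 and 17.8, 17.4 and 16.0 CPM in DMSO. Here too the groups did not overlap (log2 fold change -1.15, SE 0.0989, edgeR adjusted p = 1.17e-18). Cells with fewer transcripts of a gene and fewer cells that express it cannot be told apart in these bulk libraries.

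The RNA helicase gene Ddx58 had 16.4, 15.5 and 14.3 CPM in PluriSIn#2, against 10.1, 10.5 and 10.2 CPM in DMSO, and rose 1.5-fold without overlap (log2 fold change 0.59, SE 0.095, edgeR adjusted p = 4.49e-08). Ifih1 had 3.72, 2.25 and 3.57 CPM in PluriSIn#2 and 1.46, 1.46 and 2.67 CPM in DMSO. It rose as well (0.76, SE 0.227, edgeR adjusted p = 0.00175), although DMSO replicate 3 lay above PluriSIn#2 replicate 2. Dhx58, the third helicase of this family and a modulator of the other two, was not called, at 1.96 ± 0.136 CPM in PluriSIn#2 and 2.20 ± 0.579 in DMSO (log2 fold change -0.16, SE 0.235). Trim25, a ubiquitin ligase linked to RIG-I activation, was not called either (-0.06, SE 0.0836). The kinase gene Tbk1 had 48.0, 46.8 and 45.4 CPM in PluriSIn#2 and 48.3, 50.9 and 50.1 CPM in DMSO. These narrow groups did not overlap, but the difference of -0.09 on the log2 scale (SE 0.0509) was not called (edgeR adjusted p = 0.0956).

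**Figure D1:**
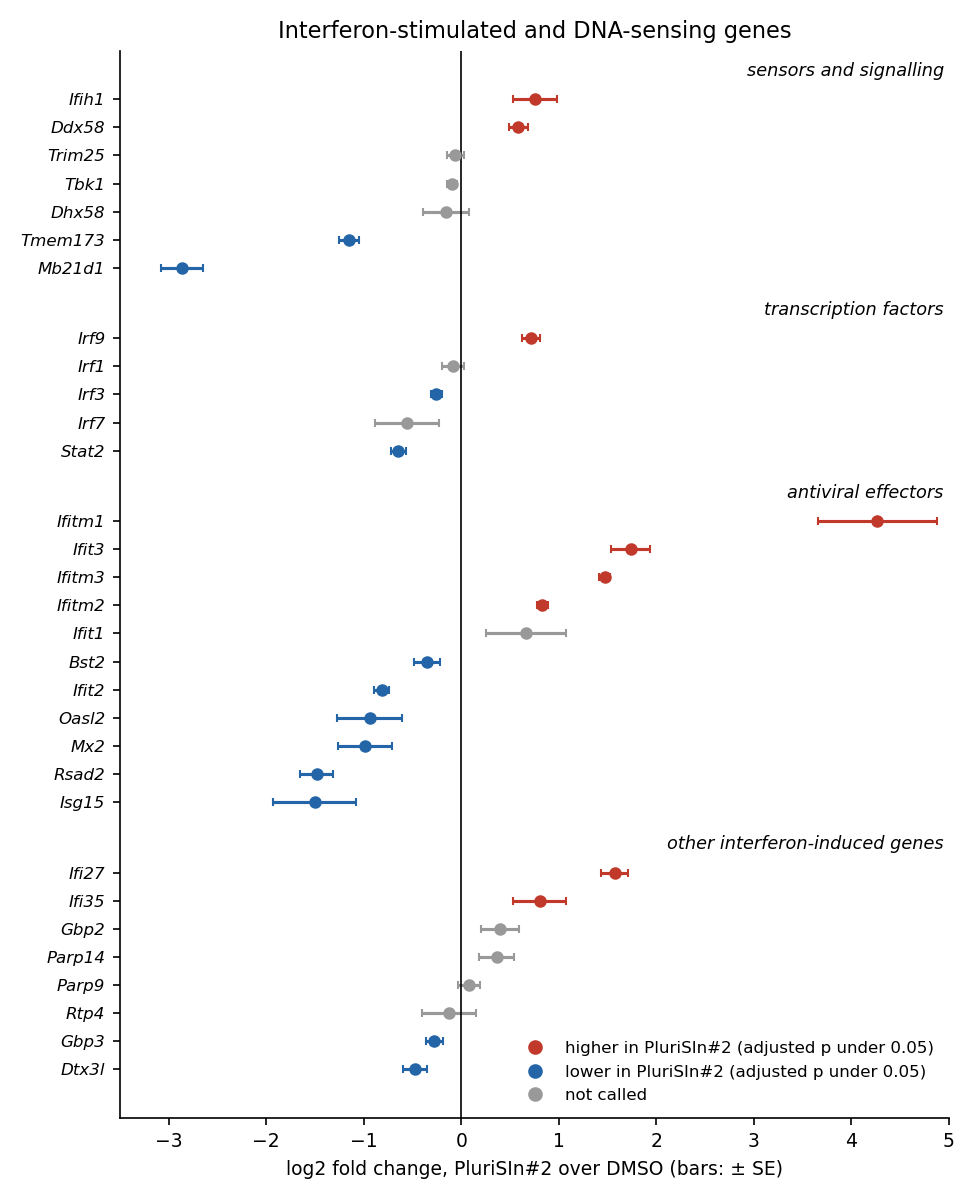
Log2 fold change of PluriSIn#2 over DMSO (x axis) for the 31 genes tested, grouped by role, each with ± 1 SE from edgeR on 3 libraries per group. Red points rose, blue points fell and grey points were not called; Mb21d1 lies lowest at -2.87 and Ifitm1 highest at 4.27.

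The transcription factors of the response were divided. Irf3, the factor that TBK1 phosphorylates, fell slightly, with 41.6, 39.4 and 42.5 CPM in PluriSIn#2 and 48.8, 50.8 and 47.7 CPM in DMSO (log2 fold change -0.25, SE 0.0529, edgeR adjusted p = 1.04e-05). Its exons overlap those of Bcl2l12 on the opposite strand, and Bcl2l12 fell too (-0.92). The partners of interferon signalling parted: Stat2 fell to 16.5 ± 0.296 CPM in PluriSIn#2, against 25.8 ± 1.46 in DMSO (-0.65, SE 0.0758, edgeR adjusted p = 1.29e-12). Irf9, which binds DNA in a complex with STAT2, rose to 18.6 ± 2.02 CPM in PluriSIn#2, against 11.3 ± 0.720 in DMSO (0.72, SE 0.0916, edgeR adjusted p = 2.66e-11). Exons annotated to Irf9 overlap Rnf31 on the same strand, which rose by less (0.39). Irf1, a factor induced mainly by interferon gamma, was not called, with 8.46, 8.66 and 9.25 CPM in PluriSIn#2 and 9.74, 9.67 and 8.58 CPM in DMSO (-0.09, SE 0.112). Irf7, the factor that amplifies interferon production, was scarce, with 15, 17 and 13 reads in PluriSIn#2 and 25, 16 and 27 in DMSO. It was not called (-0.56, SE 0.324). Exons of Irf7 overlap those of Phrf1 on the opposite strand. Phrf1 was far more abundant and fell (-0.46), at 90.2 ± 4.38 CPM in PluriSIn#2 and 123.7 ± 2.76 in DMSO. Whether reads of Phrf1 were counted for Irf7 was not tested.

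Among the 11 antiviral effectors tested 4 rose (36.4%), 6 fell (54.5%) and Ifit1 was not called, against 41.7% and 40.9% of all genes tested. A further 3 had too few reads to be tested. The Ifit genes, whose proteins bind foreign RNA, lie side by side on chromosome 19 and changed in opposite directions. Ifit2 had 16.7, 17.2 and 17.98 CPM in PluriSIn#2 and 29.5, 33.1 and 28.9 CPM in DMSO (log2 fold change -0.82, SE 0.0728, edgeR adjusted p = 6.45e-18). Ifit3, whose annotated start lies 7.11 kb beyond the end of Ifit2 on the same strand, had 4.91, 5.43 and 5.15 CPM in PluriSIn#2 and 0.952, 1.57 and 2.08 CPM in DMSO (1.74, SE 0.201, edgeR adjusted p = 7.99e-13). Neither gene's groups overlapped. A near copy, Ifit3b, carries 51.2% of the 50-base words of Ifit3, so reads of the pair may be split or lost, and Ifit3b itself rose (2.66, edgeR adjusted p = 7.06e-15). Ifit1 had 14, 16 and 12 reads in PluriSIn#2 and 7, 13 and 7 in DMSO (0.67, SE 0.41), a difference that was not detectable at this depth.

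The Ifitm genes, whose small membrane proteins block the entry of viruses and mark many stem cells, rose together in a cluster on chromosome 7. Ifitm3 had 72.8, 73.9 and 71.0 CPM in PluriSIn#2 and 28.3, 25.7 and 24.6 CPM in DMSO, 2.77-fold higher with tight and separate groups (log2 fold change 1.47, SE 0.0539, edgeR adjusted p = 1.83e-42). Ifitm2 had 51.5, 45.7 and 48.9 CPM in PluriSIn#2 and 26.2, 27.3 and 28.5 CPM in DMSO (0.83, SE 0.0588, edgeR adjusted p = 2.64e-23). Of the 50-base words of Ifitm2, 48.5% occur in transcripts of other genes, 36.1% in those of Gm45717 alone. Exons of Gm45717 overlap Ifitm2 on the same strand, and Gm45717 is not among the genes of the count table. How far the shared words make the level of Ifitm2 uncertain was not tested. Ifitm1 rested on 63 reads in PluriSIn#2, 21 in each library, and on 3 in DMSO, all in replicate 3. Scaled for library size the ratio was 21.5 (exact 95% interval of the counts 7.04 to 107, counting error only). The fitted log2 fold change was 4.27 (SE 0.611, edgeR adjusted p = 1.26e-09), and 7.40 without DMSO replicate 3.

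Rsad2, which encodes viperin, an enzyme that makes a chain-terminating nucleotide, had 2.65, 1.86 and 2.28 CPM in PluriSIn#2 and 5.71, 6.52 and 6.77 CPM in DMSO (log2 fold change -1.48, SE 0.172, edgeR adjusted p = 7.51e-13). Isg15, a ubiquitin-like protein gene, was rare in both groups, with 7, 6 and 5 reads in PluriSIn#2 and 22, 13 and 18 in DMSO. It fell (-1.50, SE 0.425, edgeR adjusted p = 0.000943), but was not called with PluriSIn#2 replicate 1 alone as the treated sample (-1.29, adjusted p = 0.0675). That fit takes its spread from the DMSO libraries and assumes that the lone sample varies like them. Mx2, annotated as a polymorphic pseudogene, as laboratory strains commonly carry defective Mx genes, had 23, 13 and 18 reads in PluriSIn#2 and 35, 35 and 40 in DMSO (-0.98, SE 0.277, edgeR adjusted p = 0.000891). With PluriSIn#2 replicate 1 alone, that call was lost too (-0.64, adjusted p = 0.138).

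Oasl2, a relative of the enzymes that activate RNase L, had 0.620, 0.603 and 1.11 CPM in PluriSIn#2 and 0.784, 2.08 and 1.5995 CPM in DMSO. The groups overlapped at DMSO replicate 1, and the call (-0.94, edgeR adjusted p = 0.00777) was lost without DMSO replicate 2 (adjusted p = 0.124). Bst2, whose protein tetherin holds budding virus on the cell surface, had 6.32, 5.10 and 5.86 CPM in PluriSIn#2 and 8.34, 6.19 and 7.52 CPM in DMSO. Its small fall (-0.35, SE 0.134, edgeR adjusted p = 0.0123) was lost in the DESeq2 test (adjusted p = 0.0507) and without DMSO replicate 1 (0.0983) or PluriSIn#2 replicate 2 (0.0866). It was also lost with PluriSIn#2 replicate 1 alone (log2 fold change -0.22, adjusted p = 0.286).

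**Figure D2:**
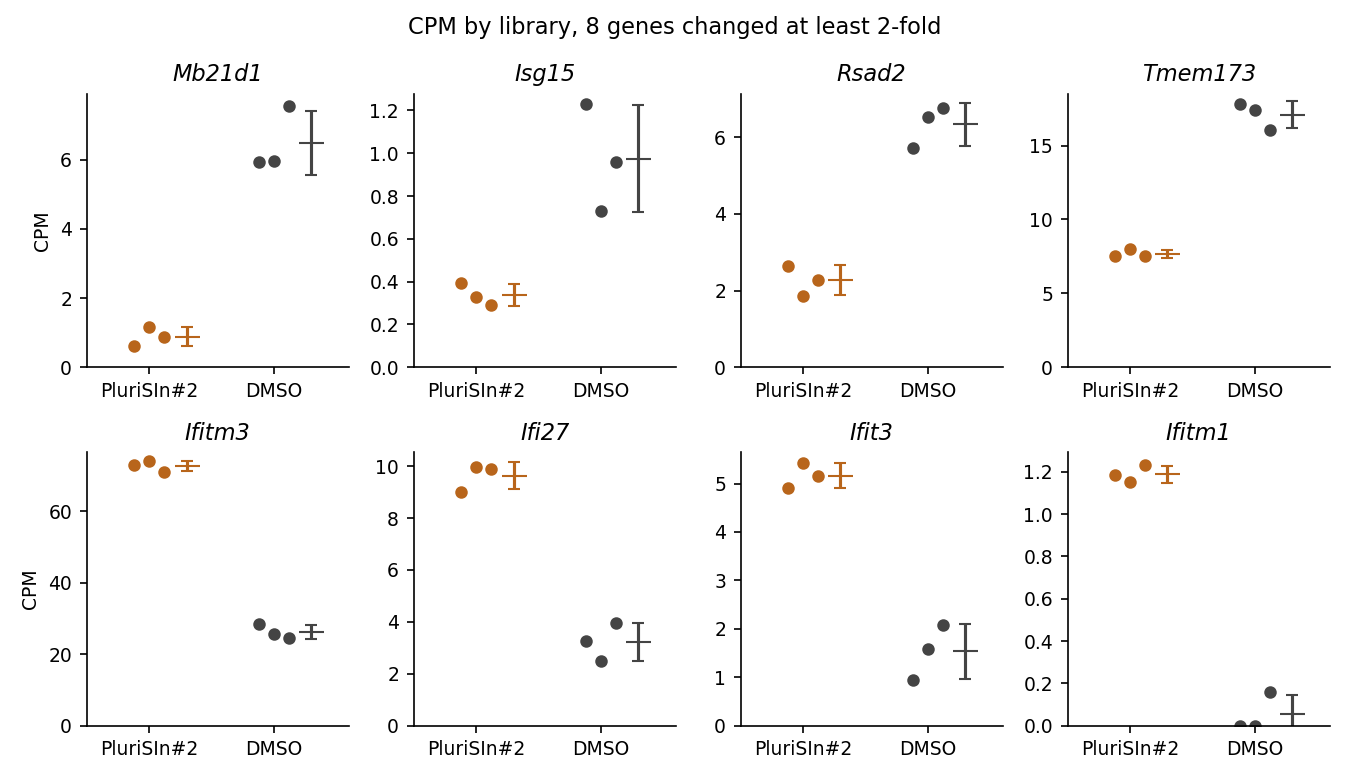
CPM (y axis, starting at 0) of the 8 genes called and changed at least 2-fold, in the 3 PluriSIn#2 and the 3 DMSO libraries. Points are libraries and crossbars give the mean ± SD; in the upper row every treated library lies below every DMSO library, and in the lower row above.

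Of 8 other interferon-induced genes tested 2 rose (25%), 2 fell (25%) and 4 were not called, against 41.7% and 40.9% of all genes tested that rose and fell. Ifi27, which encodes a small mitochondrial and nuclear-envelope protein, had 9.02, 9.98 and 9.90 CPM in PluriSIn#2 and 3.25, 2.47 and 3.95 CPM in DMSO, 2.98-fold higher (log2 fold change 1.57, SE 0.143, edgeR adjusted p = 1.72e-17). Ifi35 had 30, 38 and 38 reads in PluriSIn#2 and 17, 26 and 19 in DMSO and rose (0.81, SE 0.271, edgeR adjusted p = 0.00504), a call lost with PluriSIn#2 replicate 1 alone (0.57, adjusted p = 0.224). Parp9 and Dtx3l, whose proteins form a pair of ADP-ribosylating and ubiquitin-ligating partners, start back to back on chromosome 16, and their annotated spans overlap by 682 bases. Dtx3l fell to 6.13 ± 0.386 CPM in PluriSIn#2, against 8.51 ± 1.09 in DMSO (-0.48, SE 0.126, edgeR adjusted p = 0.000419). Parp9 was not called, at 8.67 ± 0.168 CPM in PluriSIn#2 and 8.21 ± 0.503 in DMSO (0.08, SE 0.115).

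The guanylate-binding protein gene Gbp3 fell slightly, to 14.1 ± 0.535 CPM in PluriSIn#2, against 17.1 ± 0.856 in DMSO (-0.28, SE 0.0866, edgeR adjusted p = 0.00257). Its relative Gbp2 had 3.72, 3.07 and 3.22 CPM in PluriSIn#2 and 2.69, 2.31 and 2.61 CPM in DMSO, and was not called (0.39, SE 0.195, edgeR adjusted p = 0.0552) although the groups did not overlap. A filter of 1 CPM called it (adjusted p = 0.0484), as did scaling by library totals alone (0.0242), which also called Parp14, another ADP-ribosyltransferase gene (0.36, SE 0.18, edgeR adjusted p = 0.0566, and 0.0232 with that scaling). Rtp4, known as a chaperone of receptors and an inhibitor of viruses, was not called (-0.13, SE 0.279).

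The 5 genes not tested were the rarest. Oas1a had 13 reads in PluriSIn#2 and 3 in DMSO, a ratio of 4.44 with an exact 95% counting interval of 1.22 to 24.3, and it shares 57.6% of its 50-base words with Oas1g. Oasl1 had 3 reads in PluriSIn#2 and 11 in DMSO (ratio 0.280, interval 0.0501 to 1.06). Mx1 had 4 reads in PluriSIn#2 and 14 in DMSO, and the p53-linked gene Xaf1 had 38 in PluriSIn#2 and 21 in DMSO. Ifi44 had 3, 4 and 1 reads in PluriSIn#2 and 23, 12 and 8 in DMSO. Fitted without a filter on low counts, Ifi44 fell (log2 fold change -2.35, SE 0.604, edgeR adjusted p = 0.000197), whereas Oas1a (adjusted p = 0.0724), Oasl1 (0.151), Mx1 (0.109) and Xaf1 (0.109) were not called. Xaf1 had reads enough to be tested, and was called higher, without PluriSIn#2 replicate 3.

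Levels per gene length, from the authors' deposited FPKM, set a steep order. In PluriSIn#2, Ifitm3 stood first at 112 ± 2.22 FPKM and Ifitm2 next at 78.0 ± 4.71, and their libraries did not overlap. In DMSO the same genes led, Ifitm3 at 38.8 ± 2.89 FPKM and Ifitm2 at 41.8 ± 1.73 FPKM (SD, n = 3), and their libraries did overlap. Irf3 (18.9 ± 0.751 FPKM in PluriSIn#2 and 21.5 ± 0.722 in DMSO) and Tbk1 (15.5 ± 0.432 FPKM in PluriSIn#2 and 15.7 ± 0.429 in DMSO) followed in both groups. Ifi27 moved up to the fifth place in PluriSIn#2, at 10.6 ± 0.603 FPKM, against 3.26 ± 0.661 and place 12 in DMSO. Mb21d1 dropped to place 32 in PluriSIn#2, at 0.214 ± 0.0643 FPKM, against 1.503 ± 0.215 and place 18 in DMSO. Only 5 of the 36 exceeded 10 FPKM in either group, and 13 averaged under 1 FPKM in both, among them Ifit1, Irf7, Mx2 and Oasl2.

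**Figure D3:**
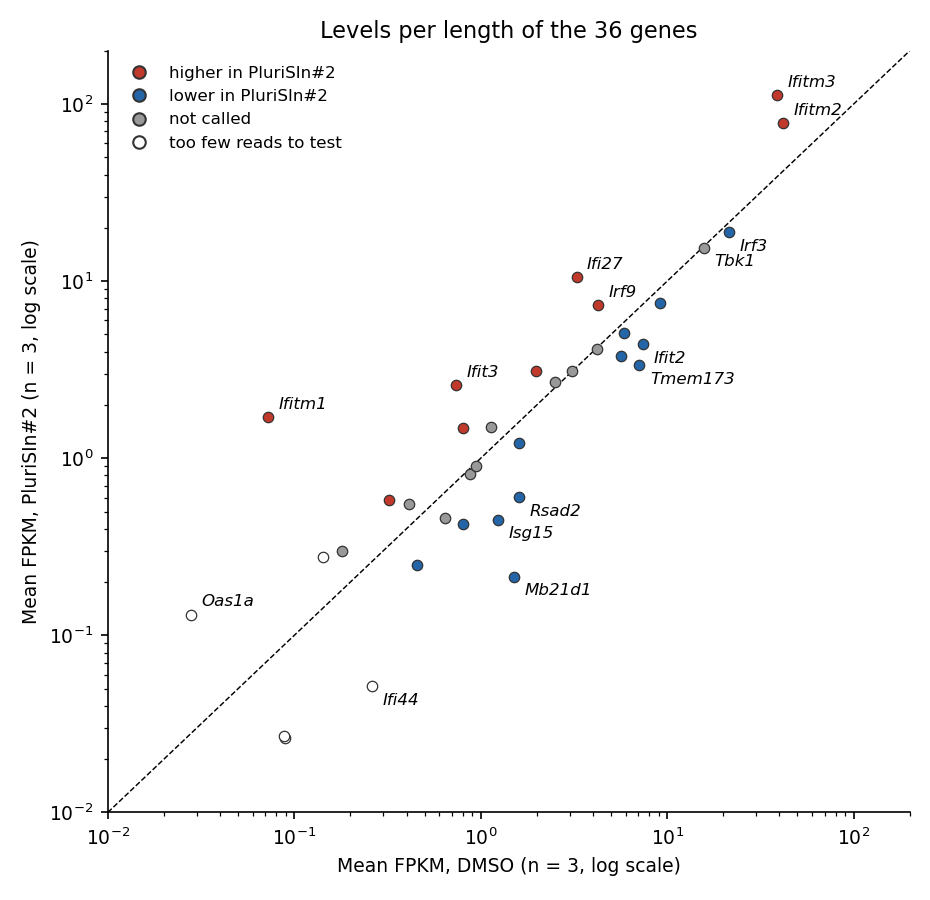
Mean FPKM of the 36 genes in PluriSIn#2 (y axis) and in DMSO (x axis), both on log scales, with n = 3 libraries per group. Points above the dashed line of equality were higher in PluriSIn#2; Ifitm3 and Ifitm2 lie at the top right, Ifitm1 far above the line and Mb21d1 farthest below it among the genes tested.

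The genes around the set were read from 4 lists of pathway genes. Interferon transcripts were at or near 0. Ifng, Ifna2, Ifna4, Ifne, Ifnl2 and Ifnl3 had 0 reads in all 6 libraries, which allows at most 0.176 CPM in a library (3 counts), and Ifnb1 had 2 reads, both in PluriSIn#2 replicate 2. The receptor and its kinases were present in both groups. Of 9 tested genes of interferon receptors and proximal signalling 5 rose (55.6%) and 3 fell (33.3%; median 0.27 on the log2 scale), against 41.7% and 40.9% of all genes tested. The type I receptor genes fell slightly, Ifnar1 to 96.5 ± 1.57 CPM in PluriSIn#2, against 111.8 ± 1.44 in DMSO (-0.21), and Ifnar2 to 17.6 ± 0.707 CPM, against 21.1 ± 1.39 in DMSO (-0.26). The type II receptor gene Ifngr2 rose (0.56), the kinase gene Jak1 rose (0.27) and Jak2 fell (-0.76).

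Of 19 tested adaptors, kinases and further sensors of nucleic acid 15 rose (78.9%) and 2 fell (10.5%), with a median of 0.60, against 41.7% and 40.9% of all genes tested. Among those that rose, Tlr7, Irf5, Aim2, Ifi203 and Ifi204 had so few reads in DMSO that only their reads in PluriSIn#2 let them be tested. For them only a rise could be called, which raises the share and the median. Of these, Ifi204, Ifi203 and Aim2 belong to the PYHIN family, which includes sensors of DNA. Its listed genes Ifi205 (5 reads in PluriSIn#2 and 1 in DMSO) and Mndal (25 and 0) had too few reads to be tested. Ifi204 averaged 4.03 ± 0.768 CPM in PluriSIn#2 and 0.350 ± 0.144 in DMSO (log2 fold change 3.50). Ifi203 rose 3.26 and Aim2 rose 2.20 on the log2 scale. Mavs, the mitochondrial adaptor of RIG-I and MDA5, rose to 47.5 ± 0.450 CPM in PluriSIn#2, against 36.8 ± 0.982 in DMSO (0.37, SE 0.0541). Tlr3, the endosomal receptor of double-stranded RNA, rose to 36.4 ± 1.06 CPM, against 15.9 ± 0.277 in DMSO (1.19). The ubiquitin ligase gene Traf3 (0.36) and the kinase scaffold gene Ikbkg (0.64) rose, while Azi2 (-0.42), an adaptor of TBK1, and Traf6 (-0.66) fell. In all, 4 of the 23 listed genes had too few reads to be tested, and without a filter on low counts 17 rose and 2 fell.

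Of 17 genes that limit self nucleic acid or interferon signalling 7 rose (41.2%) and 8 fell (47.1%), shares near those of all genes tested (41.7% and 40.9%), with a median of -0.15. Banf1, which coats DNA and is known to compete with cGAS for it, fell to 99.1 ± 7.08 CPM in PluriSIn#2, against 196.7 ± 10.2 in DMSO (-0.99). Rnaseh2c, a subunit of the RNase that removes ribonucleotides from DNA, fell to 24.3 ± 1.55 CPM, against 66.3 ± 0.468 in DMSO (-1.45). The phosphatase gene Ptpn11 fell slightly (-0.30). Trex1, the exonuclease that clears cytosolic DNA, rose to 9.51 ± 0.428 CPM in PluriSIn#2, against 6.99 ± 1.23 in DMSO (0.44, SE 0.12). Socs3, an inhibitor of JAK signalling, rose 1.25 on the log2 scale, and Irf2bp2, a corepressor of IRF2, rose 0.98.

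Of 40 tested further interferon-stimulated genes 26 rose (65.0%) and 6 fell (15.0%), with a median of 0.67, against 41.7% and 40.9% of all genes tested. The share called in either direction, 80.0%, was near the 82.6% of all genes, and 15 of the 55 listed had too few reads. Some that rose, such as Slfn2 and Sp110, could be tested only through their reads in PluriSIn#2, so for them only a rise could be called. Tap1 rose to 63.9 ± 1.65 CPM in PluriSIn#2, against 11.97 ± 0.372 in DMSO (2.42), and Tap2 to 40.7 ± 0.762 CPM, against 11.8 ± 2.23 in DMSO (1.79). Both encode the peptide transporter of antigen presentation. Ly6e fell to 7.81 ± 0.258 CPM in PluriSIn#2, against 16.4 ± 2.36 in DMSO (-1.07), and the abundant genes Usp25 (-0.19) and Tdrd7 (-0.10) fell slightly. The edgeR adjusted p of the genes named from these 4 lists as rising or falling was 0.0394 for Tdrd7 and 0.00167 or lower for the others.

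**Figure D4:**
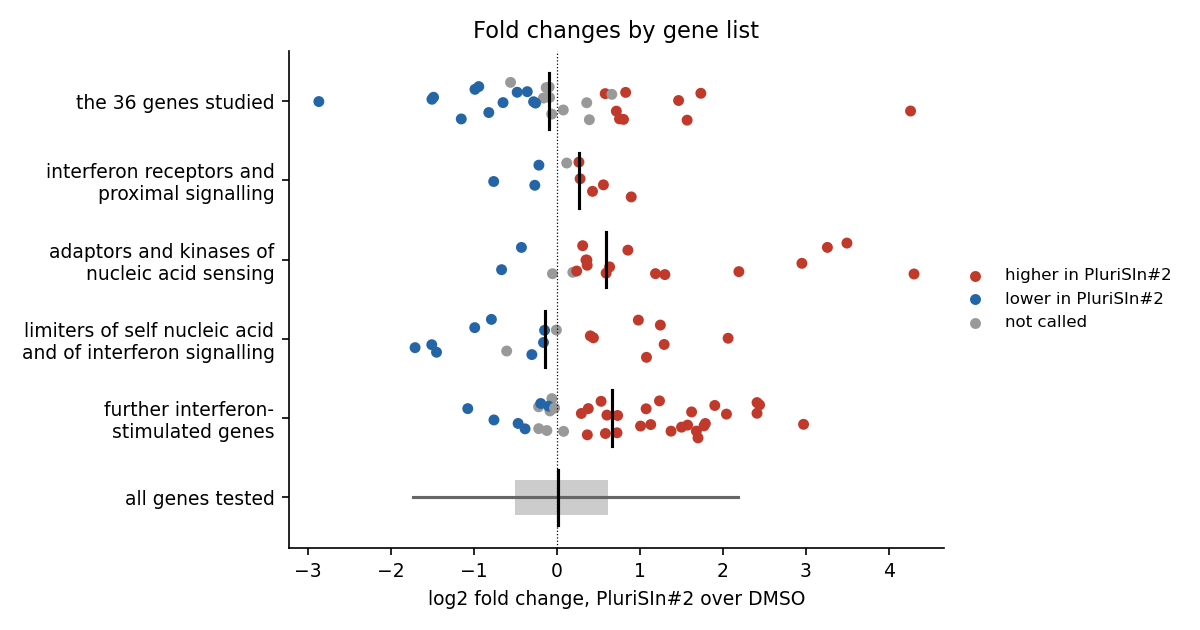
Log2 fold change of PluriSIn#2 over DMSO (x axis) for the tested genes of the set and of 4 related lists, each point a gene and each black bar the list's median. The bottom row gives all 14417 genes tested as the median, the quartiles (box) and the range from the 5th to the 95th percentile (line); the adaptors and the further interferon-stimulated genes have medians of 0.60 and 0.67, and the set has -0.09.

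Transcripts of other cell types moved in the same libraries. Of 14 tested markers of microglia and macrophages, cells rich in interferon-stimulated genes, 13 rose (92.9%), against 41.7% of all genes tested. The other, P2ry12, was not called (log2 fold change 0.07). Several of the 13, such as Trem2, Itgam and Ptprc, had so few reads in DMSO that only their reads in PluriSIn#2 let them be tested. For such genes only a rise could be called, so the share of 92.9% is not a like comparison with all genes. The summed level of the 16 listed markers was 205 to 210 CPM in PluriSIn#2 and 9.97 to 10.9 CPM in DMSO. Lyz2, the most abundant in PluriSIn#2, stood at 81.7 ± 1.77 CPM in PluriSIn#2 and 1.26 ± 0.303 in DMSO, where Cd68 was higher at 5.42 CPM, and 1 marker, Trem2, had 0 reads in DMSO. Endothelial markers summed to 33.4 to 36.3 CPM in PluriSIn#2 and 6.08 to 6.75 in DMSO, and 6 of 7 tested rose (85.7%). Cdh5 was the most abundant of them in PluriSIn#2 at 16.5 CPM, but stood at 0.128 CPM in DMSO, where Flt1 led at 2.75 CPM. Fibroblast and mural markers summed to 308 to 309 CPM in PluriSIn#2 and 170 to 176 in DMSO, and 7 of 9 rose (77.8%). The most abundant of them, Cspg4, also an oligodendrocyte precursor gene, fell to 86.1 CPM in PluriSIn#2, against 149 in DMSO, where it made up most of the sum. The sum thus understates the rise of others, such as Col1a1 (44.6 CPM in PluriSIn#2 and 1.95 in DMSO) and Col3a1 (61.5 and 0.629), while Acta2 was not called. Endothelial and fibroblast markers such as Cdh5 and Dcn could likewise be tested only through their reads in PluriSIn#2. Lymphocyte and plasmacytoid dendritic cell markers stayed at or under 1.46 CPM in sum in every library, with Cd79a highest and Cd3e and Cd3g at 0 reads. The 12 neural stem and progenitor markers were all called, against 82.6% of all genes tested. Of these markers 5 were higher (41.7%) and 7 lower (58.3%), against 41.7% and 40.9% of all genes. Hes5 fell 5.04-fold, Nes 2.71-fold, Egfr 2.47-fold and Fabp7 2.34-fold, while Gfap rose 7.14-fold. Their sum of 7955 to 7984 CPM in PluriSIn#2 and 8471 to 8579 in DMSO was carried mostly by Vim and Slc1a3. Vim, the most abundant, stood at 3059 ± 30.2 CPM in PluriSIn#2 and 2667 ± 30.5 in DMSO. The 36 genes of the set summed to 378 to 390 CPM in PluriSIn#2 and 349 to 360 in DMSO. The part of macrophage, endothelial or fibroblast transcripts in the changes of the set and of the 4 lists was not tested.

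In the authors' deposited table, 9 of the 36 genes were called higher and 11 lower at an adjusted p under 0.05. The share of all genes called there was not computed, so these counts have no background. All 31 genes tested here had the same sign in the authors' table. It called 19 of the 21 genes called by edgeR. The 2 it did not call were Oasl2 (adjusted p = 0.0649) and Bst2 (0.0729), and it called Ifi44, untested here, at a log2 fold change of -2.41.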

How the data were processed

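The aligner STAR, the counter HTSeq, the package DESeq and build mm10 are named per the submitters' processing notes. For their versions, the annotation and the strand setting, nothing is given in the sources used here. The authors deposited a table of whole-number read counts per gene symbol and a table of FPKM, normalized by them for gene length and depth. The latter also holds the authors' deposited log2 fold changes and p-values; 25 names there had become dates and were not used.

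Libraries were grouped by title. Genes and lists were chosen with earlier results of these data known. Counts were fitted with edgeR 4.0.16 under R 4.3.3 (TMM factors 0.975 to 1.02, filterByExpr, quasi-likelihood F test, group as the only term, two-sided, threshold 0.05), after a test on simulated data; DESeq2 1.42.0 was an alternative. SE is the log2 fold change divided by the root of F. Pathway genes named were the 2 most abundant and the 2 with the smallest p per direction in each list (called, at least 1 CPM), with Ifnar1, Ifnar2, Trex1, Mavs and interferon genes always (1 further gene of this rule is not reported here); other values shown were chosen after being seen. Floors and intervals (3 counts) cover counting error only. Without stated strand use, overlapping antisense genes cannot be told apart. Spans and 50-base words came from the GENCODE M21 annotation of GRCm38, which is mm10. A chi-square per degree of freedom of 1.56 to 2.22 between replicates showed no library to be a copy of another.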

Additional observations from a re-analysis of the deposited data

How the results depend on the processing

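Alternatives were DESeq2's size factors, library totals, the DESeq2 test, no filter, a 1 CPM filter, the replicate block, PluriSIn#2 replicate 1 alone and each library left out. Over them the set had 8 to 11 genes that rose and 10 to 13 that fell. Each count of calls over all genes, the set or the 4 lists stayed within 1.5 times its main value. The set's median log2 fold change (-0.09) was -0.0205 with library totals and ran from -0.1492 to -0.0046 over the libraries left out. Signs turned, without a call, for Trim25 with library totals (0.0095), for Rtp4 with PluriSIn#2 replicate 1 alone (0.0314) and without DMSO replicate 2 (0.0754), and for Dhx58 without DMSO replicate 2 (0.0291); the cause was not tested. Over the libraries left out, Rtp4 ran from -0.3797 to 0.0754 and Dhx58 from -0.3534 to 0.0291. Without DMSO replicate 2, Irf7 was called (adjusted p = 0.049). Without DMSO replicate 1, Tbk1 (0.044) and Parp14 (0.0155) were called, as were Gbp2 and Parp14 with library totals, Gbp2 with the 1 CPM filter, Xaf1 without PluriSIn#2 replicate 3, and Ifi44 with no filter, with PluriSIn#2 replicate 1 alone, and without any 1 PluriSIn#2 library or DMSO replicate 3. The replicate numbers are not said to pair libraries, so they were not taken as pairs. Deviations of same-numbered libraries were barely related (r of 0.0134, 0.0293 and -0.0025 over genes). Counting error also keeps such an r low, so these values cannot decide on pairing. The replicate block left 9 genes that rose and 12 that fell, all called before (5984 and 5867 of all genes). Genes with few reads, such as Isg15, Oasl2 and Mx2, limit what can be seen.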
